A study of Mus musculus with 4 samples.

Results

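NF-kB is a family of dimeric transcription factors that carries the signal of tumour necrosis factor alpha (TNF) from the cell surface to inflammatory genes, and the IkB proteins hold these dimers inactive. When TNF binds its receptor, the IKK kinase complex marks classical IkB proteins for destruction, the dimers enter the nucleus, and among the genes they switch on are those for several of their own subunits and inhibitors. In fibroblasts this loop sets how long and how strongly a cytokine acts. The genes described are the 10 that encode the subunits (Rela, Rel, Relb, Nfkb1 and Nfkb2), the classical inhibitors (Nfkbia, Nfkbib and Nfkbie) and 2 atypical, mainly nuclear IkB proteins (Nfkbiz and Bcl3). They were taken by symbol from a table of 16612 named genes, using for each symbol the transcript entry with the highest mean RPKM (reads scaled to transcript length and library total), and all 10 were found.

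RNA came from mouse embryonic fibroblasts (MEFs), either wild type (Mll1+/+) or labelled Mll1-/-, that is, as lacking the histone H3 lysine 4 methyltransferase gene Mll1 (Kmt2a). Both were grown in the same serum-containing medium. Each genotype was given TNF at 10 ng/ml or control solution and harvested after 4 hr, which makes 4 groups. The design text puts the dose in ng/ml, whereas a treatment protocol attaches the same figure to another unit. The cells of 3 separate treatments were mixed for each group, so a group is 1 library with no replicate, and no difference below was tested between replicates. Embryo number, clone and passage are not named in the labels, so genotype cannot be told apart from other differences between the cells.

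Library totals recovered from the RPKM values lay between 19306506 and 27977248 reads. The targeted gene, Kmt2a, had 1.85 RPKM in the wild-type control library, 2.11 in wild type with TNF, 2.02 in the control labelled Mll1-/- and 1.66 with TNF. These 4 values are close together, but the entry spans the whole transcript and the labels do not say which part was removed, so it does not check the deletion. Of 9 fibroblast markers listed, 8 had a named entry and Thy1 had none. Of these 8, 6 reached 1 RPKM in both wild-type libraries and 8 in both others. Col3a1 (0.531 and 0.296 RPKM) and Pdgfra (0.220 and 0.267 RPKM) stayed below 1 RPKM in wild type, against 23.5 to 28.1 and 3.20 to 3.86 RPKM in the libraries labelled Mll1-/-. Without TNF 5 of the 8 were higher and 1 lower past 2-fold in the latter: S100a4 had 2934 RPKM in wild type and 1332 RPKM there, and Vim was near level (2418 and 2177 RPKM). Measured epithelial markers (3 of 4 listed) and endothelial markers (3 of 3) stayed below 1 RPKM in all 4 libraries. Of 6 macrophage and leukocyte markers listed, 3 had a named entry, and only Cd14 exceeded 1 RPKM (9.28 to 25.6 RPKM). Whether the markers without a named entry lacked reads or only a name was not tested. The part of the marker differences in the results below was not tested.

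Several of the genes that were higher with TNF carry the NF-kB consensus site near their start, and their promoters are shown so that these sites can be read. RefSeq windows of 300 bases (250 before to 50 after the transcript start, GRCm38.p6) were at hand for 7 of the 10 genes, Nfkb2 having 3 windows. Relb, Nfkb1 and Nfkbiz had none. The NF-kB consensus of 10 bases, searched on both strands, matched in 5 of the 7 genes, against 5.14% of the 27025 genes with a window. Matches were present for Nfkbia, Nfkbie, Nfkb2, Bcl3 and Rel, and absent from the windows of Rela and Nfkbib. A match is a string of letters, not a measured binding site. The stretches run from 120 bases before to 30 bases after the start, 5′ to 3′ along the gene, with the consensus matches in capitals.
Nfkbia, chr12:55492618-55492767, minus strand: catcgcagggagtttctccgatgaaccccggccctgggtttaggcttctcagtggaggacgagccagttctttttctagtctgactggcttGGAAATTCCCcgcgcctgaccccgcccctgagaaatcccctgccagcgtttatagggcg
Nfkbie, chr17:45555580-45555729, plus strand: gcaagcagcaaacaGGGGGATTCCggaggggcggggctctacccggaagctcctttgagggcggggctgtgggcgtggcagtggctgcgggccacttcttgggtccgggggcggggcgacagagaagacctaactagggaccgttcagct
Nfkb2, first window, chr19:46304617-46304766, plus strand: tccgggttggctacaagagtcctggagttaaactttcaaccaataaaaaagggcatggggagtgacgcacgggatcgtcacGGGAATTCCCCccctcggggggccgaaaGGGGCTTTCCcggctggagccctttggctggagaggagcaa
Bcl3, chr7:19822726-19822875, minus strand: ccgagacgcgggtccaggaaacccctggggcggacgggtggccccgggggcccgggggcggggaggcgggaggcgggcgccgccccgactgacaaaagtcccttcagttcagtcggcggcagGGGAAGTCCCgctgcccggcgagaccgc
Rel, chr11:23770940-23771089, minus strand: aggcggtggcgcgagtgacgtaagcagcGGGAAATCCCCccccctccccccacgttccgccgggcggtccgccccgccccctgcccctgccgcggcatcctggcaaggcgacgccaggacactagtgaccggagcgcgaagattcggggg

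In Nfkbia the match begins 29 bases before the start, in Nfkbie 106 bases before it, and in Bcl3 just after the start. The first Nfkb2 window has matches that begin 39, 38 and 11 bases before the start, the former pair overlapping on opposite strands, and the Rel window has an overlapping pair at 92 and 91 bases. Both other Nfkb2 windows also held matches, including 1 site common to them. Rel, which holds a match, was with Rela among the transcripts least changed by TNF in the values below.

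In wild-type cells every one of the 10 transcripts was higher with TNF than in the control library, where 45.0% of all 14386 genes compared were higher. Genes were compared when they had at least 1 RPKM in a library, and all 10 did. Of the 14386 compared, 11115 had a symbol, and the rest were entries without one, each counted as a gene. On the scale of log2(RPKM + 0.5), which understates the ratio of genes near the floor, 6 of the 10 were higher by 1 or more, a 2-fold difference, against a background of 0.521% of genes. Their median log2 ratio was 1.27, against -0.02 over all genes. Past that line were 2 of the 3 classical inhibitors (Nfkbia and Nfkbie), both atypical proteins and 2 of the 5 subunits (Relb and Nfkb2), and the values of the 3 classes interleaved. Counting intervals (95% exact binomial intervals of the ratio of reads, which cover counting error only) lay above 1 for all 10, as they did for 15.9% of the 14341 genes with reads. In bulk RNA, a change in the share of responding cells and a change in RNA per cell cannot be told apart.

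**Figure D1:**
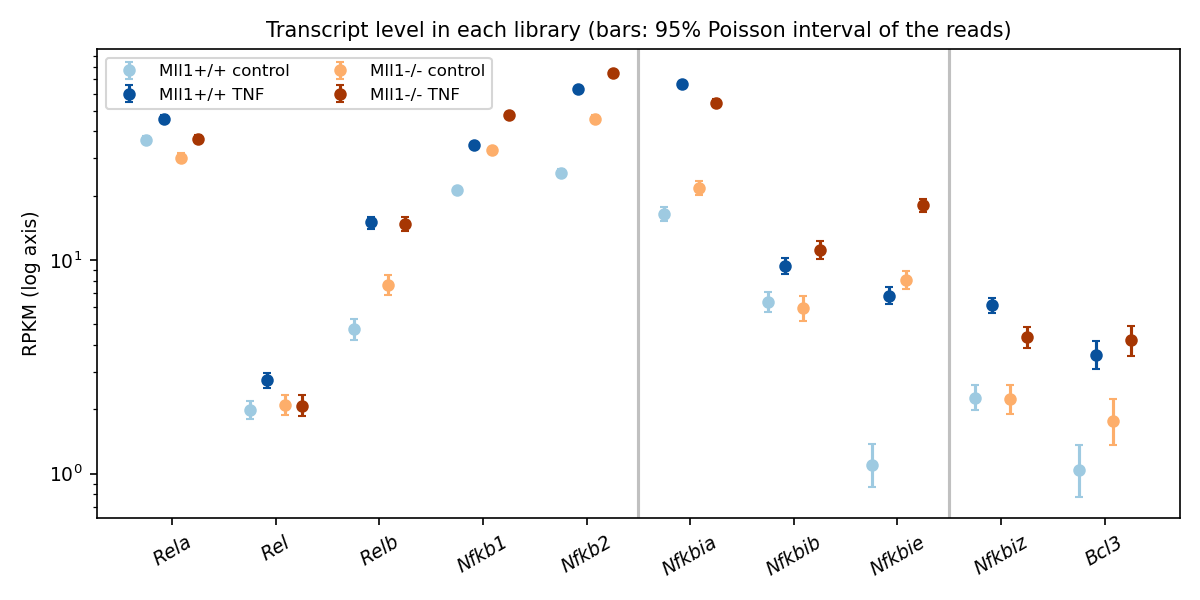
RPKM (log axis) of the 10 genes in each of the 4 libraries, with 95% Poisson intervals of the reads; grey lines divide subunits, classical inhibitors and atypical IkB proteins. Nfkbie in the wild-type control library (1.10 RPKM) lies well below its other 3 values (6.82 to 18.0 RPKM).

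Among the subunits, the partners of the noncanonical pathway stood out from the main transactivating subunit. Relb, which pairs with the p52 product of Nfkb2, had 4.73 RPKM without and 15.0 RPKM with TNF in wild type, and 7.68 and 14.8 RPKM in the cells labelled Mll1-/-. Both TNF libraries were thus nearly level, while the control libraries were not. The TNF ratio was 3.17-fold in wild type (counting interval 2.77 to 3.63) and 1.93-fold in the cells labelled Mll1-/- (1.69 to 2.20).

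Nfkb2 encodes the p100 precursor, which itself restrains Relb until it is cut to p52. Its transcript was at 25.5 and 62.9 RPKM in wild type without and with TNF, and at 45.7 and 74.7 RPKM in the cells labelled Mll1-/-. The lowest of the 4 libraries was the wild-type control, and the TNF library was the higher in each genotype. The ratio was 2.47-fold in wild type (2.35 to 2.60) and 1.64-fold in the other genotype (1.56 to 1.72). The 3 transcript entries of Nfkb2 gave ratios of 2.47 to 2.48 in wild type and of 1.64 in all 3 for the cells labelled Mll1-/-, and they held nearly the same reads (2100 to 2126 in the wild-type control). About 18.1% of Nfkb2 exon bases in GENCODE M21 overlap Psd and another gene on the opposite strand, and without strand information their reads cannot be separated. Psd itself was low (2.64 to 3.88 RPKM).

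Nfkb1, which encodes the p105 precursor of p50, moved less. It had 21.2 and 34.4 RPKM in wild type and 32.6 and 47.5 RPKM in the cells labelled Mll1-/-, ratios of 1.63-fold (1.55 to 1.71) and 1.45-fold (1.38 to 1.53). The control library labelled Mll1-/- and the treated wild-type library were near level. Rela, the p65 subunit that carries most canonical NF-kB activity and is mainly controlled by its location in the cell, had 36.6 and 45.9 RPKM in wild type and 30.1 and 36.7 RPKM in the other genotype. Its ratios were 1.26-fold (1.19 to 1.32) and 1.22-fold (1.14 to 1.31).

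Rel encodes c-Rel, a subunit best known from lymphocytes, and it was the scarcest subunit in all 4 libraries. It had 1.996 and 2.74 RPKM in wild type and 2.10 and 2.08 RPKM in the cells labelled Mll1-/-. Wild type with TNF was the highest library and the other 3 lay together. The ratio was 1.37-fold in wild type (1.21 to 1.56) and 0.992-fold in the cells labelled Mll1-/- (0.847 to 1.16), where its interval spans 1. Its transcript is long (7752 bases), and TNF ratios in the cells labelled Mll1-/- varied with length over all genes: the median log2 ratio went from 0.31 in the shortest decile of transcripts to -0.20 in the longest. With that trend removed, the log2 ratio of Rel in those cells was 0.21 in place of -0.01.

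The classical inhibitors differed widely among themselves. Nfkbia encodes IkB alpha, the fast-acting inhibitor that is destroyed and remade within an NF-kB response. In wild type it had 16.4 RPKM without and 66.4 RPKM with TNF, and 21.8 and 54.3 RPKM in the cells labelled Mll1-/-. Both TNF libraries were far above both controls. The ratio was 4.05-fold in wild type (3.73 to 4.40) and 2.49-fold in the other genotype (2.28 to 2.72). Only 14 of 14386 genes, Nfkbia included, had as high a log2 ratio in wild type.

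Nfkbie encodes IkB epsilon, a slower inhibitor that acts mostly on dimers with Rela or c-Rel. It had 1.10 RPKM (74 reads) in the wild-type control, 6.82 (462 reads) with TNF, 8.08 (393 reads) in the control labelled Mll1-/- and 18.0 (843 reads) with TNF there. The untreated library labelled Mll1-/- thus stood slightly above the treated wild-type library. Its TNF ratio was the highest of the 10 genes in wild type, 6.19-fold (4.83 to 8.02), and 2.23-fold in the other genotype (1.98 to 2.52). It gained 5.72 RPKM with TNF in wild type and 9.95 RPKM in the cells labelled Mll1-/-, so the order of the genotypes depends on the scale.

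Nfkbib encodes IkB beta, an inhibitor that is known for slower turnover. It had 6.34 and 9.37 RPKM in wild type and 5.94 and 11.1 RPKM in the cells labelled Mll1-/-. The 2 controls were close and the highest value was the treated library labelled Mll1-/-. Its ratios were 1.48-fold (1.29 to 1.70) and 1.87-fold (1.59 to 2.20). It was the only one of the 10 with the larger TNF ratio in the cells labelled Mll1-/-. Of its exon bases 16.4% overlap Sirt2 and Ccer2 on the opposite strand, and without strand information their reads cannot be separated. Sirt2 was itself at 14.0 and 12.2 RPKM in wild type without and with TNF, and at 12.5 and 14.3 RPKM in the cells labelled Mll1-/-. It thus also had the larger TNF ratio in the latter, and its part in the Nfkbib values was not tested.

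The atypical IkB proteins work in the nucleus, where they bind p50 or p52 dimers on DNA and can switch target genes on as well as off. Nfkbiz (IkB zeta, needed for Il6 and other secondary response genes) had 2.27 and 6.14 RPKM in wild type and 2.23 and 4.34 RPKM in the cells labelled Mll1-/-. The controls were level and the treated wild-type library was the highest. Its ratios were 2.70-fold (2.31 to 3.16) and 1.95-fold (1.60 to 2.38). Its 3 transcript entries gave 2.70 to 2.71 in wild type and 1.92 to 1.96 in the other genotype.

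Bcl3, which can give p50 and p52 dimers an activating function, had 1.04 RPKM (53 reads) and 3.60 (185 reads) in wild type, and 1.76 (65 reads) and 4.21 (149 reads) in the cells labelled Mll1-/-. The treated libraries were both above the controls. Its ratios were 3.46-fold (2.54 to 4.79) and 2.38-fold (1.77 to 3.24), with wide intervals because it has the fewest reads of the 10. A gene on the opposite strand, Gm16175, overlaps 6.51% of its exon bases.

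**Figure D2:**
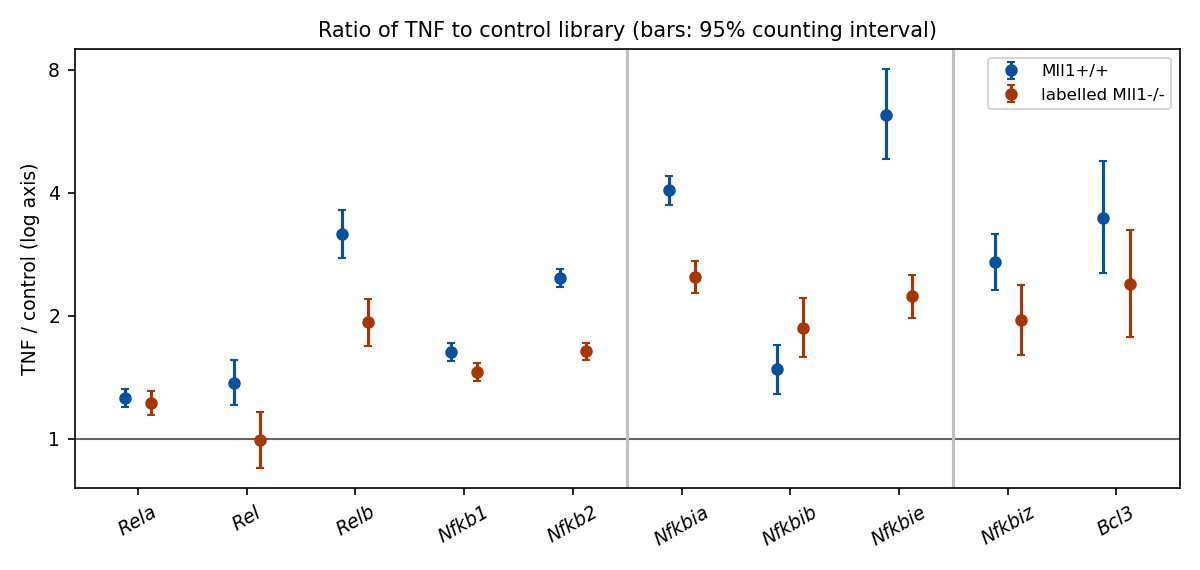
Ratio of the TNF library to the control library (log axis) for each gene in Mll1+/+ cells and in cells labelled Mll1-/-, with 95% counting intervals. The wild-type ratio is the larger for 9 of the 10 genes, most of all for Nfkbie (6.19 against 2.23), and Nfkbib is the exception.

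In the cells labelled Mll1-/-, 9 of the 10 transcripts were higher with TNF, where 52.8% of all genes were, and Rel was not. Past 2-fold on the log2(RPKM + 0.5) scale were 3 of the 10, namely Nfkbia (1.30), Nfkbie (1.11) and Bcl3 (1.06), against a background of 0.688% of genes. No subunit was among them, although Relb (0.90) came near. The median over the 10 was 0.84, against 0.02 over all genes. When the libraries were rescaled without the 20 most abundant genes (a shift of -0.15 in the median log2 ratio of all genes), Nfkbie (0.96) and Bcl3 (0.93) dropped below the 2-fold line and only Nfkbia remained above it. Removal of the length trend left Nfkbia and Nfkbie above the line and put Bcl3 at 0.99.

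**Figure D3:**
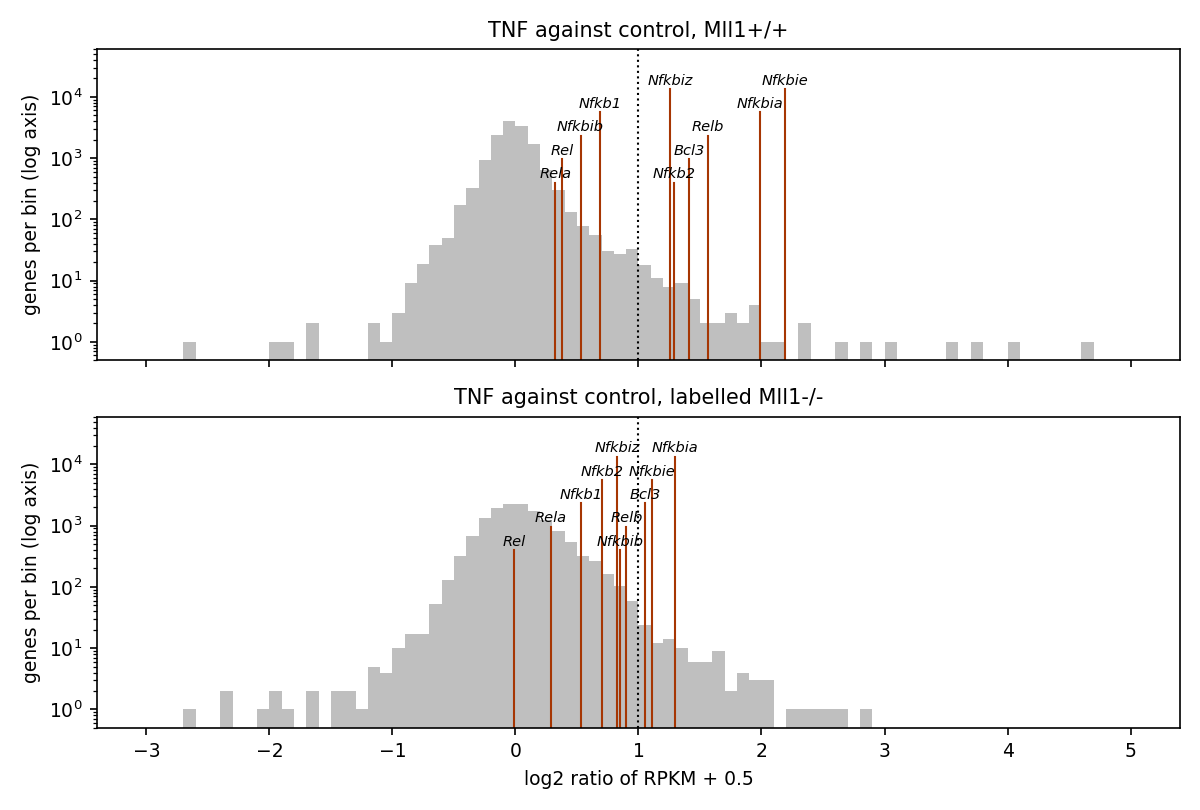
Number of genes (log axis, bins of 0.1) by log2 ratio of RPKM + 0.5 between TNF and control, in Mll1+/+ cells (top) and cells labelled Mll1-/- (bottom), with the 10 genes marked by lines of arbitrary height and the 2-fold line dotted. In wild type 6 of the 10 lie to the right of that line, in the other genotype 3.

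The difference between the TNF ratios (the log2 ratio in cells labelled Mll1-/- minus that in wild type) lay below 0 for 9 of the 10 genes and above 0 for Nfkbib. Over all genes 53.2% lay above 0. The median of the 10 was -0.41, against 0.03 over all genes. With the length trend removed, Nfkb1 went from -0.15 to -0.03 and Nfkbia from -0.69 to -0.82. From reads alone, Nfkbie had the lowest difference, -1.47 on the log2 scale (interval -1.87 to -1.08, counting error only). Relb followed at -0.72 (-0.99 to -0.45), then Nfkbia at -0.70 (-0.88 to -0.53) and Nfkb2 at -0.59 (-0.69 to -0.49). The intervals for Rela (-0.16 to 0.08) and Bcl3 (-1.15 to 0.07) held 0, and that of Nfkbib ran from 0.03 to 0.64. Rescaled without the 20 most abundant genes, a shift of -0.17 in the median of all genes, Nfkbib was at 0.15 in place of 0.32 on the log2(RPKM + 0.5) scale. On the scale with 0.5 RPKM added, Nfkbie alone was lower by 1 or more (-1.08), where the background is 0.424% of genes, and with 1 RPKM added it was at -0.83 and no member was past that line. The same control libraries enter both the TNF ratios and the untreated comparison of genotypes, so a high control value lowers the one and raises the other by arithmetic.

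Without TNF, 7 of the 10 transcripts were higher in the cells labelled Mll1-/- than in wild type, where 45.0% of all genes were. Nfkbie alone was past 2-fold (7.33-fold, counting interval 5.71 to 9.53), against a background of 7.11% of genes for higher values, so the count of 1 in 10 is near the background. Nfkb2 was 1.79-fold (1.69 to 1.90), Bcl3 1.69-fold (1.16 to 2.48), Relb 1.62-fold (1.38 to 1.90), Nfkb1 1.54-fold (1.46 to 1.63) and Nfkbia 1.33-fold (1.20 to 1.48) higher. Rel, Nfkbib and Nfkbiz had intervals that held 1, so intervals excluded 1 for 7 of the 10, and over all genes for 76.2%. Rela was the 1 gene whose interval lay below 1, at 0.821-fold (0.772 to 0.873). That direction depends on the scaling: rescaled without the 20 most abundant genes, a shift of 0.28 in the median of all genes, Rela was at 0.01 on the log2 scale and Nfkb2 passed the 2-fold line at 1.13. In this comparison the median log2 ratio of all genes went from -0.53 in the shortest decile of transcripts to 0.25 in the longest. With that trend removed, the log2 ratio of Nfkb1 went from 0.61 to 0.44, and that of Nfkbia from 0.40 to 0.55.

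With TNF, 5 of the 10 transcripts were higher in the cells labelled Mll1-/-, where 45.1% of all genes were, and the genotypes lay closer together than without TNF for 6 of the 10 and for 62.8% of all genes. Nfkbie was 2.64-fold higher in the cells labelled Mll1-/- (2.36 to 2.97) and again the only 1 past 2-fold, against 6.71% of all genes. Nfkb1 was 1.38-fold (1.32 to 1.44) and Nfkb2 1.19-fold (1.14 to 1.24) higher. Nfkbia stood at 0.818-fold (0.770 to 0.868), Rela at 0.800-fold (0.756 to 0.846), Rel at 0.761-fold (0.662 to 0.874) and Nfkbiz at 0.708-fold (0.613 to 0.815) of wild type. Relb was at 0.986-fold, with an interval of 0.890 to 1.09.

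**Figure D4:**
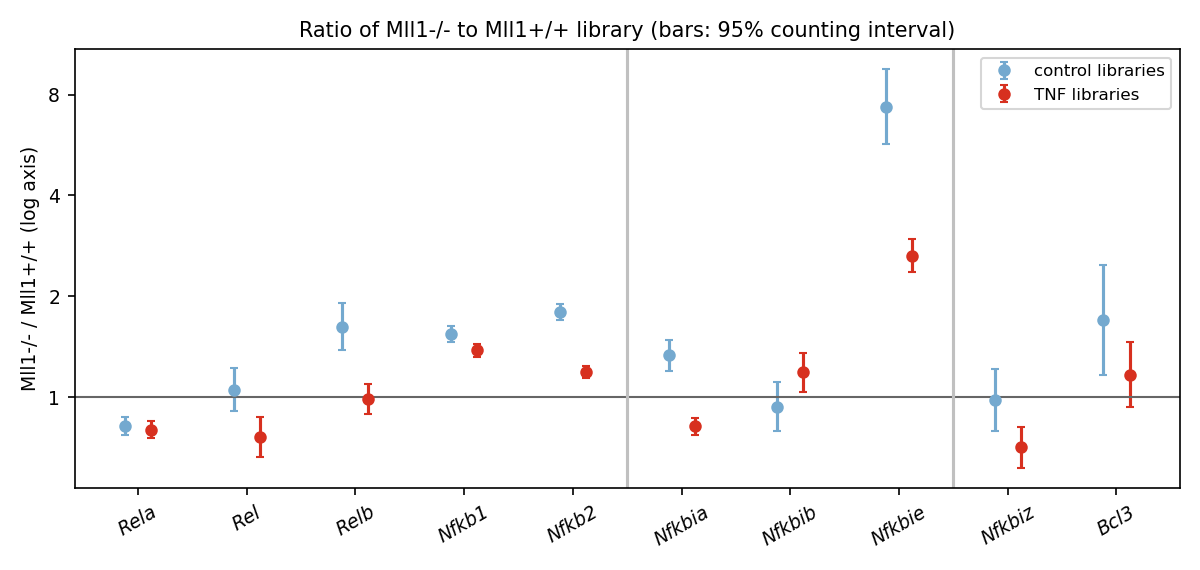
Ratio of the library labelled Mll1-/- to the Mll1+/+ library (log axis) for each gene, for control and for TNF libraries, with 95% counting intervals. Nfkbie lies farthest above 1 in both (7.33 and 2.64), and for 9 of the 10 genes the ratio is smaller with TNF.

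The order of the transcripts by RPKM, which is scaled to transcript length, changed with TNF and with genotype. Ratios between libraries varied with transcript length, as given above, and the orders were not corrected for that trend. Rela led in the wild-type control library, ahead of Nfkb2, Nfkb1 and Nfkbia. With TNF, Nfkbia (66.4 RPKM) and Nfkb2 (62.9 RPKM) led in wild type, and their Poisson intervals overlap. In the control labelled Mll1-/- the order was Nfkb2, then Nfkb1 and Rela, whose intervals overlap, and with TNF it was Nfkb2 (74.7 RPKM), Nfkbia (54.3), Nfkb1 (47.5) and Rela (36.7). At the low end, Nfkbie and Bcl3 were not separated by their intervals in the wild-type control, nor were Nfkbiz, Rel and Bcl3 from their next neighbours in the control labelled Mll1-/-, where Nfkbie had moved up to the fifth place, with an interval that overlaps that of Relb. Nfkbiz overlapped with Rel in the wild-type control, with Nfkbie in wild type with TNF and with Bcl3 in the TNF library labelled Mll1-/-.

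As shares of summed RPKM, Rela made up 40.7% of the 5 subunit transcripts in the wild-type control, 28.5% in wild type with TNF, 25.4% in the control labelled Mll1-/- and 20.9% with TNF there. Nfkb2 made up 28.3%, 39.1%, 38.7% and 42.5% in the same order. The sum of the subunits in wild type was 90.0 RPKM without and 161 RPKM with TNF, and 118 and 176 RPKM in the other genotype. The sum of the classical inhibitors was 23.8 and 82.6 RPKM in wild type and 35.9 and 83.4 RPKM in the cells labelled Mll1-/-, so the treated libraries were nearly level in this sum. They differed in what made it up: Nfkbie was 4.62% and 8.25% of it in wild type, and 22.5% and 21.6% in the cells labelled Mll1-/-. The ratio of classical inhibitor to subunit transcripts was 0.265 and 0.513 in wild type without and with TNF, and 0.303 and 0.474 in the other genotype. It counts Nfkb2 wholly as a subunit, although the p100 precursor also restrains Relb. These are transcript shares, not corrected for the trend with transcript length, and say nothing of protein.

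**Figure D5:**
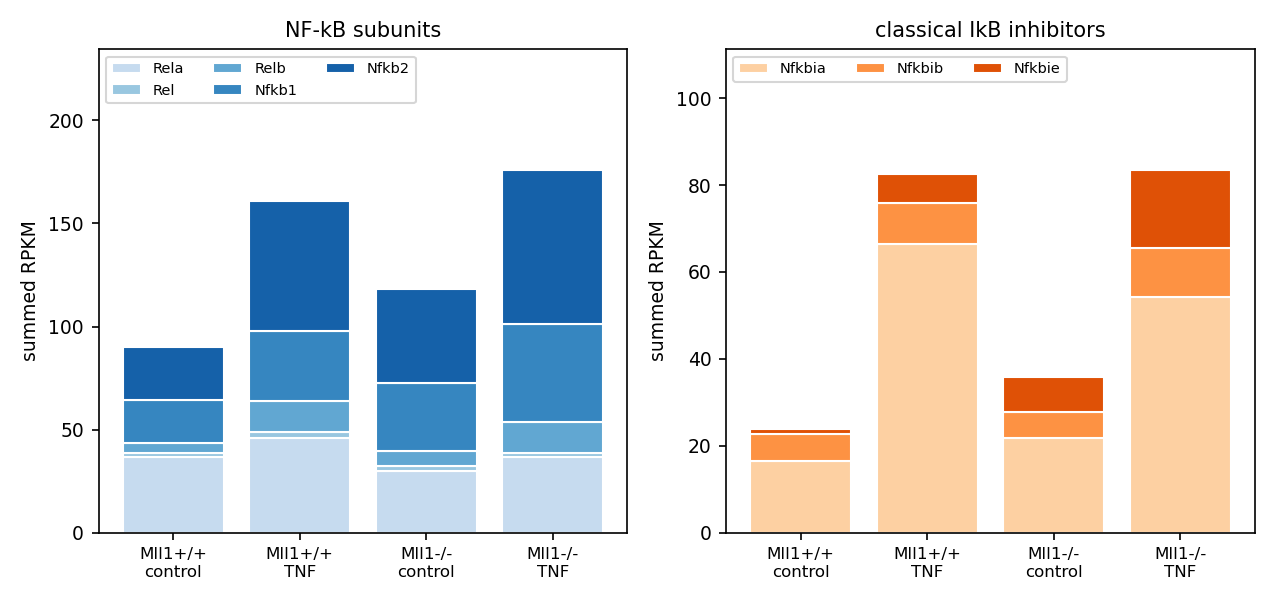
Summed RPKM of the 5 NF-kB subunits (left) and the 3 classical IkB inhibitors (right) in each library, each bar divided by gene. The inhibitor sums with TNF are 82.6 and 83.4 RPKM, with a larger Nfkbie part in the library labelled Mll1-/-.

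Genes that act before the NF-kB dimers were counted from lists on the same scale. Over all genes 0.577% in wild type and 0.848% in the cells labelled Mll1-/- were past 2-fold in either direction with TNF. Between genotypes 15.1% were without TNF and 11.2% with it, so counts of 0 in lists this short are near the background. Of 8 genes for the IKK complex and its activating kinases, 0 were past 2-fold on the log2(RPKM + 0.5) scale in any of the comparisons, with a median log2 TNF ratio of 0.04 in wild type and -0.13 in the cells labelled Mll1-/-. Map3k14 (NIK, the kinase that triggers p100 processing) had 2.36 and 2.20 RPKM in wild type and 4.76 and 3.60 RPKM in the cells labelled Mll1-/-, the highest genotype value of the 8 (0.88 on that scale without TNF, and 2.02-fold in RPKM). The 5 genes of the ubiquitin ligase for IkB also had 0 past 2-fold, among them the substrate-binding Fbxw11 (28.7 to 33.6 RPKM over the 4 libraries). Of 9 genes for the TNF receptor complex 0 passed for TNF in either genotype. The adaptor Traf2 (12.9 and 17.9 RPKM) had the highest log2 TNF ratio of the 9 in wild type (0.45). The second TNF receptor, Tnfrsf1b, was the 1 of the 9 past 2-fold between genotypes, a count near the shares of all genes given above. It had 1.97 and 2.46 RPKM in wild type and 27.3 and 28.7 RPKM in the cells labelled Mll1-/-.

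Of 9 other regulators of TNF and NF-kB signalling, 4 were higher past 2-fold with TNF and 0 lower in each genotype (medians 0.95 and 0.73). Over all genes 0.521% in wild type and 0.688% in the cells labelled Mll1-/- were higher past 2-fold with TNF. Without TNF, 2 of the 9 were higher past 2-fold in the cells labelled Mll1-/-, against 7.11% of all genes. Those 2 were Tnip3, a partner of the deubiquitinase A20 (0.249, 3.21, 2.02 and 6.79 RPKM in wild-type control, wild type with TNF, control labelled Mll1-/- and TNF labelled Mll1-/-), and the adaptor Traf1 (1.64, 10.7, 5.50 and 17.6 RPKM in the same order). Of 13 secreted target genes 10 could be compared. With TNF 8 were higher past 2-fold in wild type and 9 in the cells labelled Mll1-/-, against 0.521% and 0.688% of all genes. Cxcl10 and Saa3 reached 1 RPKM only with TNF, so they entered the comparison only because they were high there. Between genotypes, 2 of the 10 were lower and 0 higher past 2-fold in the cells labelled Mll1-/- without TNF, against 7.99% of all genes lower, and 4 of the 10 lay above 0. With TNF 5 were lower and 0 higher, against 4.5% of all genes lower, and 2 lay above 0. Cxcl5 (log2 -4.49 with TNF) and Ccl20 (-4.25) were lowest and the cytokine gene Lif (0.47) highest.

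The genes with the most similar pattern over the 4 libraries were ranked by Euclidean distance between centred log2(RPKM + 0.5) values, a description that rests on 4 points. For Nfkbiz the nearest was Tnfaip3 (distance 0.08), which encodes A20 and had 5.32, 13.3, 5.56 and 9.57 RPKM in the library order used above, followed by the RNA entry AF357399 (0.11) and Cd74 (0.20). Relb and Bcl3 were each other's nearest (0.17). Relb was next to Nfkb2 (0.33) and Plscr1 (0.39), and Bcl3 to the A20-binding gene Tnip1 (0.29) and Nfkb2 (0.31). Nfkb2 lay nearest to Plpp3 (0.21), Slc11a2 (0.26) and Rnd1 (0.27). Nfkbia had no close match, with Relb at 0.48, the death receptor gene Fas at 0.50 and the small nucleolar RNA entry Snord45b at 0.54. Nfkbie stood farthest from any gene, with Tnip3 at 0.60, Serpinb2 at 0.77 and the small nucleolar RNA entry Snord57 at 0.80. Of these neighbours, Cd74 and Snord45b reached 1 RPKM only with TNF, so they entered the comparison only because they were high there. Snord45b had 0 RPKM in both control libraries and Snord57 in the wild-type control, where the added 0.5 RPKM sets their values.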

How the data were processed

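RNA sequencing of 4 pooled MEF libraries was used. The deposited values are RPKM for 27344 transcript entries, computed by the authors. The submitters' processing notes name TopHat and DESeq without version or role, and the sources used here state no build, annotation or read counter. Whole reads were recovered: for 27340 entries 1 length gave whole reads in all 4 libraries (within 0.0001 reads), multiplied where needed to lie within 10% of the GENCODE M21 length (for Rel and 1 Nfkbiz entry by 3). Symbols came from the RefSeq table (GRCm38.p6) for 20845 entries and from GENCODE for 106, and 6393 entries kept their accession. Comparisons used log2(RPKM + 0.5) over 14386 genes with at least 1 RPKM in a library. With 1 library per group no replicate test exists, and intervals cover the counting error of reads alone. Reads that carry no molecular identifier can stem from the same molecule, so the intervals can be too narrow for the counting of molecules. The size rule and intervals were tested on simulated data that held counting error only, which says nothing of variation between cultures. Python 3.11.15, scipy 1.17.1 and statsmodels 0.14.6 (lowess length trend, fraction 0.3) were used. All 10 genes are named, with up to 2 highest and 2 lowest of each pathway list and the 3 nearest profiles of genes past 2-fold with TNF. The genes, lists and rules were chosen with earlier results of these data known. The 8 alternatives are in the closing section.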

Additional observations from a re-analysis of the deposited data

Results flagged for a closer look

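Rel was higher with TNF in wild type (0.38 on the scale of log2(RPKM + 0.5)) and slightly lower in the cells labelled Mll1-/- (-0.01), so the 2 genotypes moved in opposite directions by a difference of -0.38. Each group is 1 library and the difference was not tested. The value of -0.01 is within counting error of 0, and with the length trend removed it was 0.21 and the difference was -0.12.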

How the results depend on the processing

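Each log2 value of the 10 genes in the 5 comparisons (50 values) was recomputed under 8 alternatives. With 0.1 or 1 RPKM added and with median-ratio scaling, all 50 moved from their reported log2 value by less than the width of their counting interval divided by 2. The same held with no filter, but the filter only sets which genes form the background and cannot alter a member's value. It also held with the mean over all entries of a symbol, which can alter only Nfkb2 and Nfkbiz, the members with several entries. Upper-quartile scaling moved 5 by more than that, the length correction 4, and leaving the 20 most abundant genes out of the scaling 19. No value past 2-fold changed sign. Counts of members past 2-fold changed by more than 1.5 times in 3 cases. Leaving out the 20 most abundant genes gave 1 in place of 3 for TNF in the cells labelled Mll1-/- and 2 in place of 1 for the genotypes without TNF. Adding 1 RPKM gave 0 in place of 1 for the difference in TNF response. Signs near 0 turned for Nfkbiz and Nfkbib (genotypes without TNF) and Relb (genotypes with TNF) under at least 1 scaling, for Rela as given above, and for Rel with the length trend removed (genotypes without TNF, 0.06 to -0.26). The causes were not tested. No paired analysis was possible because each group is 1 library. Bcl3, with 53 to 185 reads, has the widest intervals of the TNF ratio in the cells labelled Mll1-/-.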

Other observations

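The untreated library labelled Mll1-/- can be set beside the treated wild-type library, a pair that differs in both genotype and TNF and so belongs to no comparison of the design. Nfkbie was 1.19-fold higher in the former (counting interval 1.03 to 1.36) and Nfkb1 was at 0.948-fold (0.903 to 0.996) of the treated wild-type level. The side of 1 on which Nfkb1 lies depends on the scaling: it was at 0.996-fold with median-ratio scaling, 1.02-fold with upper-quartile scaling and 1.15-fold when rescaled without the 20 most abundant genes, whereas Nfkbie stayed above 1 (1.24-fold to 1.43-fold) under these 3, which were applied to this pair after seeing the data. The other 8 genes were lower there, from 0.767-fold for Rel and 0.727-fold for Nfkb2 down to 0.363-fold for Nfkbiz and 0.329-fold for Nfkbia. The ratio of Nfkbia to Nfkbie transcripts was 14.9 and 9.74 in wild type without and with TNF, and 2.70 and 3.01 in the cells labelled Mll1-/-. The ratio of Relb to Rela was 0.129 and 0.326 in wild type, and 0.255 and 0.402 in the other genotype. These ratios between genes were not corrected for the trend with transcript length.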
